A study of Mus musculus with 8 samples.

Results

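The genes Kit, Ly6a, Flt3, Slamf1, Cd48, Cd34 and Procr encode the surface proteins by which mouse multipotent progenitors (MPPs) are told apart, and their open chromatin in MPP3 and MPP4 cells is described here. Peaks of chromatin accessibility from ATAC-seq, in which the Tn5 transposase cuts open DNA, were taken as peaks of these 7 genes where the gene was the closest one in GENCODE vM21 and the peak center lay in it or in the 20 kb before or the 10 kb after it. This gave 30 of 87642 peaks in MPP3 cells and 37 of 86952 peaks in MPP4 cells. Peaks that overlapped by at least 1 bp were taken as shared, so that the 7 genes had 44 positions, of which 24 were shared, 6 were found in MPP3 cells alone and 14 in MPP4 cells alone.

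The study compared Ebf1-deficient and control progenitors of C57BL/6 mice, aged 8 or 9 weeks. Control (WT) mice are labelled Ebf1fl/fl Tie2Cre +/+ and deficient (KO) mice Ebf1fl/fl Tie2Cre +/cre, so both carry the floxed alleles by the labels, whereas the series' design text names the controls as wild-type for Ebf1 with Tie2Cre. The Tie2 promoter drives Cre in endothelial and hematopoietic cells, so loss of Ebf1 is not restricted to MPPs. Each genotype and cell type had 2 libraries of 5000 sorted bone marrow cells, 8 in all, from 7 female mice and 1 male mouse, the latter giving an MPP4 WT library. The MPP4 WT libraries came from mice of 9 weeks and the MPP4 KO libraries from mice of 8 weeks, and the MPP3 libraries from mice of 8 weeks except a KO library of 9 weeks. The value used is the mean level of a peak as log2 CPM, in which fragment counts are scaled to a common total, pooled over the 4 libraries of a cell type and both genotypes. No value per library or genotype was analysed here, so levels carry no replicate error, no difference was tested, and all comparisons are descriptions of these 2 tables. Each table was normalized on its own, and cell type cannot be told apart from the sort, sex, age and library differences that go with it.

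Hematopoietic stem cells and MPPs lie among lineage-negative cells with the receptor tyrosine kinase KIT and the glycosylphosphatidylinositol-anchored protein SCA-1 (Ly6a) on their surface, the LSK compartment. Within it, the SLAM family receptors CD150 (Slamf1) and CD48 separate stem cells and MPP2 from the later MPPs, and the receptor tyrosine kinase FLT3 marks the lymphoid-biased MPP4, whereas MPP3 are biased towards the myeloid lineage. CD34 is a sialomucin that rises as long-term stem cells give rise to MPPs, and EPCR (Procr), the endothelial protein C receptor, marks stem cells. By the labels MPP3 were sorted as LSK CD150- CD48+ and MPP4 as LSK CD150- CD48+ Flt3+ cells, after depletion of cells with CD3, B220, CD11b, Gr1 or Ter119. The proteins of Kit, Ly6a, Slamf1, Cd48 and Flt3 thus chose the cells, and those of Cd34 and Procr did not. A difference at Flt3 between the tables lies along the sorted protein, and while the labels give no Flt3 gate for MPP3, a supplementary table of the study lists them as Flt3-.

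The sequences below are of the Flt3 positions with the largest differences between the cell types and of the highest distal or single-table peaks of Flt3, Slamf1, Kit and Cd34. They are from GRCm38 (mm10), 5′ to 3′, and the windows of 300 bases are centered on the MPP4 peak and read on the plus strand. Capitals mark matches, on either strand, to the motifs of EBF1 (TCCCNNGGG), E proteins (E-boxes, which read CAGGTG for some factors and CAGCTG for others), GATA factors (either AGATAA or, with another first base, TGATAA), PU.1 (GAGGAA), RUNX (TGTGGT) and C/EBP (TTGCNNAA). Overlaps between motifs were allowed, and a match is not a bound site. The printed bases before the Flt3 start lie beside the center of its start peak. The 300 bases at that center, which reach into the first exon and are not shown, held an E-box, a PU.1 and a RUNX match in both tables.
Flt3 promoter, the 250 bases before the RefSeq start on the minus strand, chr5:147400490-147400739, with no match: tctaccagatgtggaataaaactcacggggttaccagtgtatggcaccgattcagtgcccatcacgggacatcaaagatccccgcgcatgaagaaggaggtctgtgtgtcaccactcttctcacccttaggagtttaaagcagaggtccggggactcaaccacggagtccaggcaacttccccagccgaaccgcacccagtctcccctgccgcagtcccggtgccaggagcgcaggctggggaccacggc
Flt3 intron, 33.9 kb into the gene, chr5:147366419-147366718, with an E-box and a RUNX match: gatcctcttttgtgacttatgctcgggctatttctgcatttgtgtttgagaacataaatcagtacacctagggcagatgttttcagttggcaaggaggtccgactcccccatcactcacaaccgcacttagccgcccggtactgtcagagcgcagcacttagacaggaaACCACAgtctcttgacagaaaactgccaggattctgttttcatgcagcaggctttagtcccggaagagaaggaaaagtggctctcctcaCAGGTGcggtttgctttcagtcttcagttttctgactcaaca
Flt3 intron and coding exon 20, 59.3 kb into the gene, chr5:147341081-147341380, with an E-box and an EBF1 match: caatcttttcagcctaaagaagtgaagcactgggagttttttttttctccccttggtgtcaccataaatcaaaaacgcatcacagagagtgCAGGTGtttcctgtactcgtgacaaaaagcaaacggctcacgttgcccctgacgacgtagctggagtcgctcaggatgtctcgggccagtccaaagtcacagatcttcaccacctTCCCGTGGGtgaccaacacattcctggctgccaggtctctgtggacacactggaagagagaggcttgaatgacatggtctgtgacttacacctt
Slamf1, 5.0 kb upstream, chr1:171761990-171762289, with 2 RUNX matches: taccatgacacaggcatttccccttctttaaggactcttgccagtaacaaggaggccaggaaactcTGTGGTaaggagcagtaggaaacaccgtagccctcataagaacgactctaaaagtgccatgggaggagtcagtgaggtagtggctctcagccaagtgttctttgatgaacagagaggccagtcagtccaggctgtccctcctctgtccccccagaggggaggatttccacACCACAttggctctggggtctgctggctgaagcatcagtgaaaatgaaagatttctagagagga
Kit intron, 17.6 kb into the gene, chr5:75592336-75592635, with 2 E-box matches: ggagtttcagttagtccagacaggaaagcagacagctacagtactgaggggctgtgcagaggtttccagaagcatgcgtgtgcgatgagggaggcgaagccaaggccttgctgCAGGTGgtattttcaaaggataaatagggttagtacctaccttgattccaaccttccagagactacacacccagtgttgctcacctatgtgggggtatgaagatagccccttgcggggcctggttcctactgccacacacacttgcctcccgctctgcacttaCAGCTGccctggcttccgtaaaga
Cd34, 10.7 kb upstream, chr1:194927982-194928281, with a GATA match: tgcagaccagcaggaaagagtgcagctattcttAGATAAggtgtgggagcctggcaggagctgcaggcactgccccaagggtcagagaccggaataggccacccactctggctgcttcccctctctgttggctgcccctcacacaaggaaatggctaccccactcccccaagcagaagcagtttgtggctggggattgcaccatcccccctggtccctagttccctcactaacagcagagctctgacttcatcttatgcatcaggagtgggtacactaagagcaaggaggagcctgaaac

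In windows of 300 bases around the peak centers, the EBF1 motif was in 4 of 30 peaks of the 7 genes in MPP3 cells (13.3%) and in 6.72% of all MPP3 peaks, and in 2 of 37 peaks in MPP4 cells (5.41%) and in 5.63% of all MPP4 peaks. The MPP3 windows with it were the Cd48 promoter and Flt3 positions 37.2, 59.3 and 67.7 kb into the gene, and the MPP4 windows were those at Flt3 37.2 and 59.3 kb. An E-box was in 46.7% of the peaks of the 7 genes in MPP3 and 45.9% in MPP4 cells, beside 38.5% and 39.0% of all peaks. The RUNX motif was in 23.3% and 35.1%, beside 30.8% and 32.4%, and the PU.1 motif in 33.3% and 37.8%, beside 39.4% and 41.9%. The GATA motif was in 20% and 24.3% of the peaks of the 7 genes, beside 19.2% and 17.0%, and the C/EBP motif in 6.67% and 5.41%, beside 11.7% and 11.5%. Over 32851 RefSeq promoter entries, some of them from the same gene, in the 250 bases before the start, an E-box was in 27.7%, the EBF1 motif in 5.60% and the RUNX motif in 14.0%. RefSeq promoter entries matched 6 of the 7 genes by symbol and not Ly6a. In these 250 bases the EBF1 motif was found at Kit and Slamf1, an E-box at Slamf1 and Procr, and the RUNX motif at Cd48. Those of Flt3 and Cd34 had no match to any of the motifs.

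Over the 24 shared positions, 16 had a higher level in MPP4 and 8 in MPP3 cells, with a median difference (MPP4 minus MPP3) of 0.17 log2 CPM and a range of -0.83 to 1.13. Over all 66324 shared positions the median was 0.04, 53.0% were higher in MPP4 cells, and the 5th to 95th percentiles ran from -0.88 to 1.07. A difference of at least 1 log2 CPM towards MPP4 was seen at 2 of the 24 positions, both in Flt3, beside 6.05% of all shared positions, and a difference of at least 1 towards MPP3 at 0 of 24, beside 3.78%. Without Flt3, 9 of 16 positions were higher in MPP4 cells, with a median of 0.10 and a range of -0.83 to 0.62, all within the 5th to 95th percentiles of all positions.

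**Figure D1:**
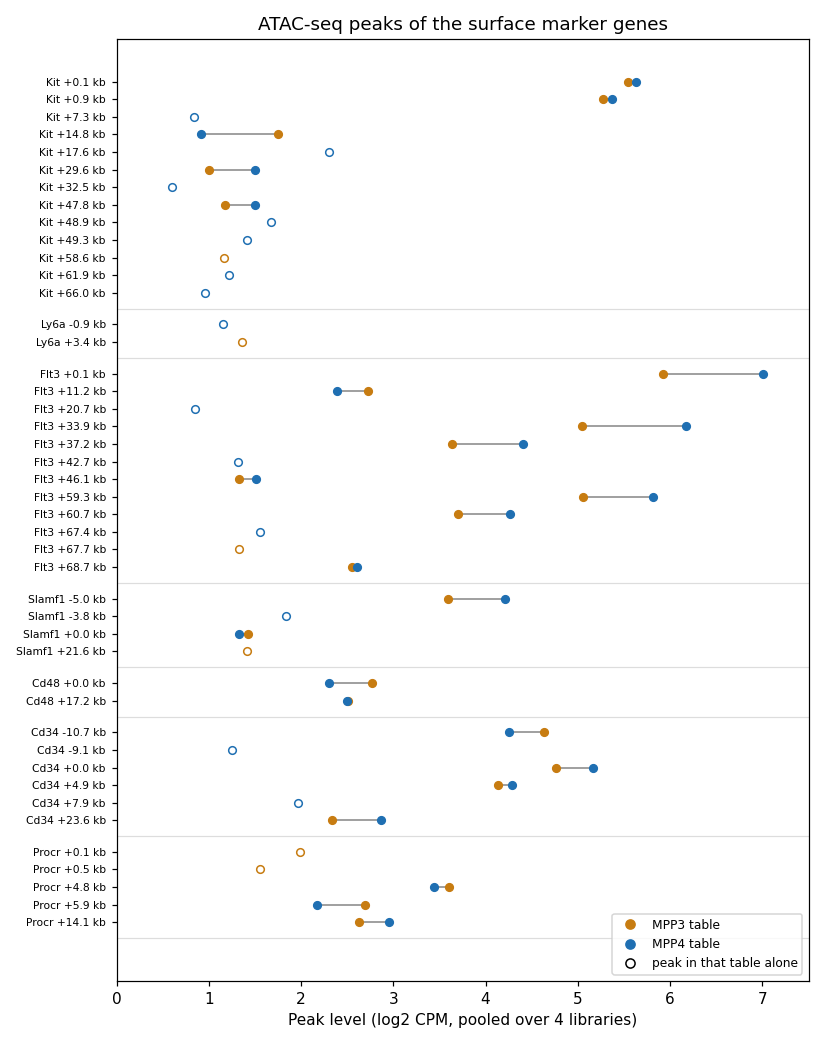
Level of each peak of the 7 genes (x axis, log2 CPM pooled over 4 libraries) by gene and distance of the peak center from the gene start (y axis, kb). Filled points joined by a line are shared positions, and open points are peaks of a single table. The Flt3 lines are the longest among the high peaks, from 5.92 to 7.01 at the gene start and from 5.04 to 6.17 at 33.9 kb, and all open points lie at or below 2.30.

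Peaks of the 7 genes that were found in a single table were weak. The 6 peaks of MPP3 cells alone made up 20% of their 30 MPP3 peaks, beside 24.3% of all MPP3 peaks, and had levels of 1.16 to 1.99. The 14 peaks of MPP4 cells alone made up 37.8% of their 37 MPP4 peaks, beside 23.3% of all MPP4 peaks, and had levels of 0.60 to 2.30. Weak peaks were more often found in a single table in general. Of all MPP4 peaks with a level of 0.60 to 2.30, 40.6% had no MPP3 peak, and this held for 14 of 20 peaks of the 7 genes in this range. For MPP3 peaks with a level of 1.16 to 1.99, the share without an MPP4 peak was 33.5%, and it was 6 of 10 for the 7 genes. Both ranges run from the lowest to the highest single-table peak of the 7 genes, so all of these peaks lie inside by construction. The 14 of 20 and 6 of 10 thus cannot be read as an excess over the shares of all peaks. A peak that is missing from a table was not called there, which does not show that its DNA was closed.

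Flt3, the receptor for FLT3 ligand that supports early lymphoid progenitors, had the highest mean level per kb of peak among the 7 genes and the largest median difference over shared positions. It lies on the minus strand of chromosome 5, from 147330741 to 147400489, and had 9 peaks in MPP3 and 11 in MPP4 cells, of which 8 were shared. Their summed level was 170.1 CPM in MPP3 and 319 CPM in MPP4 cells, a ratio of 1.87, over 3130 and 3950 bp of peaks. Per kb of peak the mean level was 54.3 and 80.7 CPM. Of the 8 shared positions 7 were higher in MPP4 cells, with a median difference of 0.65 log2 CPM.

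The peak at the Flt3 gene start (chr5:147400170-147400648 in MPP3 and chr5:147400005-147400691 in MPP4 cells), which covers the first exon, had a level of 5.92 in MPP3 and 7.01 in MPP4 cells. The level in MPP4 cells was 2.12 times that in MPP3 cells, a difference of 1.08 log2 CPM. This was at percentile 95.2 of all shared positions and at percentile 97.6 of the 20243 shared positions within 1 kb of a transcript start, whose median was -0.11. With 129 CPM the peak was among the highest of the MPP4 table, at percentile 99.6. It was also longer in MPP4 cells, with 687 bp in place of 479 bp, and per kb of peak the difference was 0.56 log2 CPM, at percentile 90.9.

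Of the 7 distal shared positions of Flt3, 6 were likewise higher in MPP4 cells. In the intron 33.9 kb from the gene start the level was 5.04 in MPP3 and 6.17 in MPP4 cells, a difference of 1.13 and a ratio of 2.19, at percentile 95.7 of all shared positions. Per kb of peak the difference at this position was 0.94, at percentile 98.0, and it was the largest of the 24 positions on either scale. At 37.2 kb, in an exon of a processed transcript of Flt3 without coding sequence, the level was 3.64 in MPP3 and 4.41 in MPP4 cells, a difference of 0.78. At 59.3 kb, over coding exon 20, which carries the EBF1 match shown above, it was 5.06 and 5.81, a difference of 0.75. At 60.7 kb it was 3.70 and 4.26, a difference of 0.56.

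The remaining 3 shared Flt3 positions had lower levels, and their differences were between -0.34 and 0.18 log2 CPM. At 46.1 kb the levels were 1.33 and 1.51, at 68.7 kb 2.55 and 2.61, and at 11.2 kb 2.73 in MPP3 and 2.39 in MPP4 cells. The last was the single shared Flt3 position with a lower level in MPP4 cells, by -0.34 log2 CPM, and per kb of peak it was higher in MPP4 cells by 0.21. Per kb, then, 8 of 8 shared Flt3 positions were higher in MPP4 cells, by 0.06 to 0.94 with a median of 0.40. The Flt3 peaks of MPP4 cells alone, at 20.7, 42.7 and 67.4 kb, had levels of 0.85, 1.32 and 1.55, and the peak of MPP3 cells alone, at 67.7 kb, had 1.33.

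**Figure D2:**
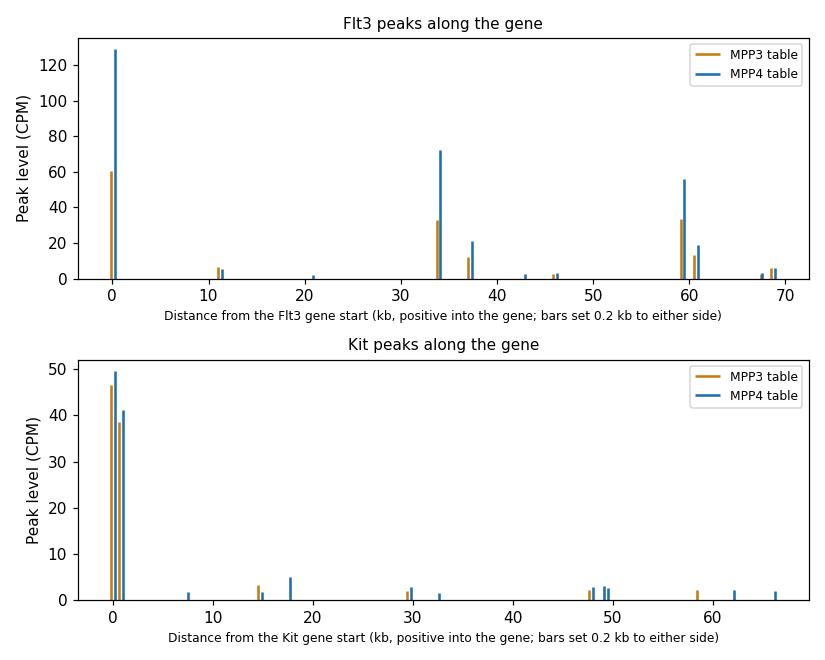
Level of each Flt3 peak (upper panel) and Kit peak (lower panel) in CPM (y axis) against the distance of its center from the gene start in kb (x axis), with 1 bar for each table. The bars of MPP4 cells exceed those of MPP3 cells at the Flt3 gene start (129 and 60.7 CPM) and at 33.9 kb (72.1 and 32.9 CPM), whereas the Kit bars near its start are of like height (49.6 and 46.5 CPM at the start).

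Peaks near Flt3 that had a closer gene were not counted among its peaks. The intronic position 7.6 kb into Flt3, closest to the predicted gene Gm26597, had 4.19 in MPP3 and 5.10 in MPP4 cells, a difference of 0.91 and of 0.72 per kb. At 18.0 and 18.5 kb upstream, closest to D5Ertd605e, MPP3 cells had separate peaks of 4.92 and 3.80 where MPP4 cells had a single peak of 5.56. Per kb these MPP3 peaks had 5.95 and 5.74 log2 CPM and the MPP4 peak 5.84. At 10.4 kb upstream, closest to Gm29793, the level was 1.98 in MPP3 and 0.96 in MPP4 cells. When these and the other peaks in its window were added, the summed level of Flt3 differed by 0.74 log2 CPM in place of 0.91.

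Kit, the receptor for stem cell factor and part of the LSK gate of both cell types, lies on the plus strand of chromosome 5, from 75574916 to 75656722. It had 6 peaks in MPP3 and 12 in MPP4 cells, of which 5 were shared. The peak at the gene start had a level of 5.54 in MPP3 and 5.63 in MPP4 cells, and the peak in the first intron, 872 bp from the start, had 5.27 and 5.37. Both differences, 0.09 and 0.10 log2 CPM, were near the middle of all shared positions, at percentiles 54.0 and 54.6. Among shared positions within 1 kb of a transcript start they were at percentiles 70.3 and 71.0. Per kb of peak the differences were 0.19 and 0.20, at percentiles 69.8 and 70.3 of all shared positions. These peaks were thus high in both cell types and, before division by peak length, alike within 0.10 log2 CPM. Per kb of peak the position at the gene start had 6.57 and 6.76 log2 CPM, beside medians of 5.03 and 5.04 over all peaks within 1 kb of a transcript start.

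The body of Kit held weak peaks. Of its 12 MPP4 peaks, 7 had no MPP3 peak, beside 23.3% of all MPP4 peaks. These 7 were all intronic and 7.3 to 66.0 kb from the start, with levels of 0.60 to 2.30. Of all MPP4 peaks in that range, 40.6% had no MPP3 peak. The 7 peaks set the range themselves, so their number cannot be read as an excess. The highest of the 7, 17.6 kb into the gene, is the window with 2 E-box matches shown above. It was long, with 526 bp, so that its level per kb, 3.23 log2 CPM, was at percentile 10.7 of all MPP4 peaks. Among the weak shared positions, MPP3 cells had 1.75 and MPP4 cells 0.92 at 14.8 kb, 1.00 and 1.5 at 29.6 kb, and 1.18 and 1.5 at 47.8 kb. The difference at 14.8 kb, -0.83 log2 CPM, was the lowest of the 24 positions and at percentile 5.69 of all, but -0.21 per kb, at percentile 29.4. The MPP4 peak there was 167 bp long and the MPP3 peak 256 bp. The MPP3 peak at 58.6 kb had a level of 1.16 and no MPP4 peak.

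Ly6a, which encodes SCA-1, had a single weak peak in each table although SCA-1 was part of the gate of both cell types. The gene lies on the minus strand of chromosome 15, from 74994877 to 74998031, in a cluster of related Ly6 genes whose similar sequences make the placement of reads less certain. Its peak in MPP3 cells, 3.4 kb from the start and downstream of the gene, had a level of 1.36, and its peak in MPP4 cells, 925 bp upstream of the start, had 1.15. These did not overlap, so Ly6a had no shared position, and neither table had a peak over its start. Higher peaks lay further downstream and were closest to the predicted gene Gm37042. At 9.4 kb from the Ly6a start they had 4.94 in MPP3 and 4.92 in MPP4 cells, and at 8.7 kb 4.22 and 2.95. The latter peak was 552 bp long in MPP3 and 189 bp in MPP4 cells, and its level per kb was 5.07 and 5.35 log2 CPM.

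Slamf1 encodes CD150, the SLAM family receptor that was absent from the surface of both sorted cell types, and lies on chromosome 1 from 171767127 to 171801184. The peak at its start was weak, with 1.42 in MPP3 and 1.33 in MPP4 cells. By far the highest Slamf1 peak was the distal one 5.0 kb upstream, with 3.59 in MPP3 and 4.21 in MPP4 cells, a difference of 0.62 log2 CPM and of 0.36 per kb. It held 69.3% of the summed level of Slamf1 in MPP3 and 75.2% in MPP4 cells, and its difference was at percentile 84.2 of all shared positions. A peak 3.8 kb upstream, with 1.84, was found in MPP4 cells alone, and an intronic peak at 21.6 kb, with 1.41, in MPP3 cells alone.

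Cd48 encodes the CD2 family protein CD48, which was on the surface of both sorted cell types, and lies near Slamf1 on chromosome 1, from 171682009 to 171705258. Its start peak had 2.77 in MPP3 and 2.30 in MPP4 cells, a difference of -0.46 log2 CPM, and its intronic peak at 17.2 kb had 2.51 and 2.50. The start peak was 469 bp long in MPP3 and 318 bp in MPP4 cells, and per kb it was higher in MPP4 cells by 0.10. The center of the MPP4 start peak was closer to A630035G10Rik, so the summed level of Cd48, 12.5 CPM in MPP3 and 5.67 CPM in MPP4 cells, leaves it out in MPP4 cells. Over the shared positions alone the summed level differed by -0.24 log2 CPM, and by 0.24 when the other 5 positions in the Cd48 window were added. The gene thus had modest peaks in both cell types and no difference with a stable sign.

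Cd34 encodes a sialomucin that was not used in the gates and lies on chromosome 1 from 194938819 to 194961279. Its start peak had 4.76 in MPP3 and 5.16 in MPP4 cells, a difference of 0.39 log2 CPM and of 0.12 per kb. The highest distal peak in MPP3 cells, 10.7 kb upstream, went the other way, with 4.63 in MPP3 and 4.25 in MPP4 cells, a difference of -0.38 and of -0.42 per kb, at percentile 12.9 of all shared positions per kb. This is the window with a GATA match shown above. The intronic peak at 4.9 kb had 4.13 in MPP3 and 4.29 in MPP4 cells, and was the highest distal peak in MPP4 cells. The peak 23.6 kb from the start, downstream of the gene, had 2.34 and 2.87, a difference of 0.54 and of 0.48 per kb. Peaks of MPP4 cells alone, 9.1 kb upstream and 7.9 kb into the gene, had 1.25 and 1.97.

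Procr encodes EPCR, a marker of stem cells that was likewise outside the gates, and lies on chromosome 2 from 155751117 to 155755471. At its start, peaks were called in MPP3 cells alone, with a level of 1.99 at 150 bp and of 1.56 at 459 bp from the start. Of all MPP3 peaks near a transcript start with a level of 1.49 to 2.49, 24.5% likewise had no MPP4 peak. The 3 shared positions all lay downstream of the gene. MPP3 cells had a level of 3.60 and MPP4 cells of 3.44 at 4.8 kb, 2.69 and 2.17 at 5.9 kb, and 2.63 and 2.95 at 14.1 kb. The middle one differed by -0.53 log2 CPM, at percentile 12.6 of all shared positions, and by -0.46 per kb.

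A larger difference than at any counted Procr peak lay 7.9 kb upstream of its start, at a position closest to the predicted gene Gm17581. Its level was 5.23 in MPP3 and 3.86 in MPP4 cells, a difference of -1.37 log2 CPM at percentile 1.49 of all shared positions, and of -0.72 per kb. A peak 8.7 kb upstream, with 2.77, was found in MPP3 cells alone. When these positions were added, the summed level of Procr differed by -1.02 log2 CPM in place of -0.46. Neither peak counts among those of Procr by the closest gene, and which gene they act on was not measured.

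**Figure D3:**
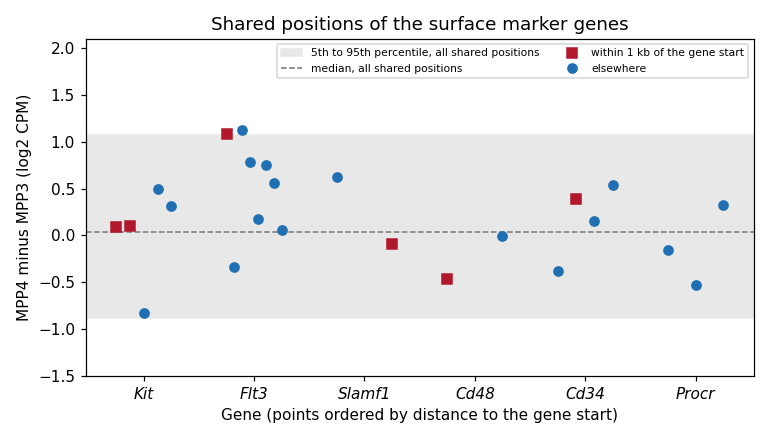
Difference in level between MPP4 and MPP3 cells (y axis, log2 CPM) at the 24 shared positions by gene (x axis, Ly6a had none). Squares are positions within 1 kb of the gene start, circles other positions, and the grey band spans the 5th to 95th percentiles of all shared positions (-0.88 to 1.07). The 2 highest points, 1.08 and 1.13, are Flt3 positions at the upper edge of the band. Kit, Slamf1, Cd34 and Procr have points on both sides of 0, and the Cd48 points are -0.46 and -0.01.

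The order of the 7 genes by the level at the gene start could be compared per kb of peak. In MPP3 cells Flt3 had 6.99 log2 CPM per kb, Kit 6.57 and Cd34 6.26, each at the peak nearest to the start, followed by Cd48 with 3.86, Procr with 3.77 and Slamf1 with 3.71. The second MPP3 peaks near the starts of Kit and Procr, 872 and 459 bp away, had 6.45 and 4.30, and by the latter Procr would stand before Cd48. In MPP4 cells the order was Flt3 with 7.55, Kit with 6.76, Cd34 with 6.38, Cd48 with 3.96 and Slamf1 with 3.88, and the Ly6a peak 925 bp upstream of the start had 3.82. The genes thus fell into those with start peaks above the median of all transcript start peaks, which was 5.03 in MPP3 and 5.04 in MPP4 cells, and those below it. With no error for a level, the order among Cd48, Procr, Slamf1 and Ly6a cannot be resolved.

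Peak length changed the sign of the difference at 6 of the 24 shared positions. Per kb of peak, 18 of the 24 shared positions were higher in MPP4 cells, with a median difference of 0.14 and a range of -0.46 to 0.94, beside a median of -0.01 and 48.4% of positions over all shared positions. The start peak of Cd48, the start peak of Slamf1, the Procr peak at 4.8 kb and the Flt3 peak at 11.2 kb were lower in MPP4 cells by log2 CPM and higher per kb. The Kit peaks at 29.6 and 47.8 kb were higher by log2 CPM and lower per kb.

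**Figure D4:**
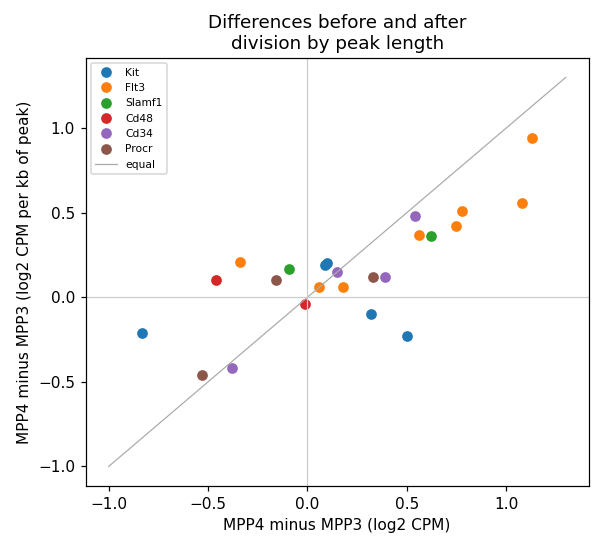
Difference between MPP4 and MPP3 cells at the 24 shared positions as log2 CPM (x axis) and as log2 CPM per kb of peak (y axis), colored by gene, with the line of equal values. The Flt3 positions with differences above 0.5 stay above 0.3 on the y axis, and 6 points change sign.

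Other surface genes of progenitors gave the context of these differences. Of 46 shared positions at 14 other progenitor surface markers, 14 were higher in MPP4 cells, with a median difference of -0.23 log2 CPM. The start peak was shared for 13 of these genes, and it was higher in MPP4 cells for 4 and lower for 9. The start peaks of Cd9 (a tetraspanin of stem cells and megakaryocyte progenitors) and Esam (an adhesion molecule of stem cells) were lower in MPP4 cells, by -1.29 and -0.96. That of Il7r, the receptor chain for interleukin 7 of lymphoid progenitors, had 2.70 in MPP3 and 3.64 in MPP4 cells, a difference of 0.94 at percentile 93.0. The start of Cd93 was higher in MPP4 cells by 0.59, and that of Csf3r, the receptor for G-CSF, lower by -0.36. Il7r, Cd93 and Csf3r each had 2 shared positions, of which 1 was higher in MPP4 cells, with medians of 0.33, -0.18 and 0.36. The higher Csf3r position differed by at least 1 log2 CPM, so the start peaks do not stand for these genes as a whole.

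The genes next to the listed ones in the genome differed less in their medians. At the SLAM family neighbors of Slamf1 and Cd48, 14 of 22 shared positions were higher in MPP4 cells, with a median of 0.16 and a range of -1.41 to 0.91. Cd244a, which encodes the CD48 receptor 2B4, had 6 of 9 positions higher in MPP4 cells. At the Ly6 neighbors of Ly6a, 4 of 10 shared positions were higher, with a median of -0.12, and the start of Ly6e had 4.23 in MPP3 and 3.97 in MPP4 cells. Ly6m is not named in the annotation used.

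The genes behind the depletion antibodies had 12 shared positions, of which 9 were higher in MPP4 cells, with a median of 0.35. Ptprc, the gene of CD45 and of its B220 form, is expressed by all leukocytes and had 4 of 4 positions higher, with a start peak of 3.23 in MPP3 and 3.79 in MPP4 cells. Itgam, which encodes CD11b, had start peaks of 2.85 and 3.16. The start of Cd3d had 6.14 and 6.27, and the Ly6g gene had no peak in either table. Cd3e and Cd3g had peaks in MPP4 cells alone, where 23.3% of all MPP4 peaks had no MPP3 peak. Ly6c1 had 1 peak, in MPP3 cells alone, where 24.3% of all MPP3 peaks had no MPP4 peak. The start of Ly6c2 was lower in MPP4 cells by -0.19, and 1 of its 2 shared positions was higher.

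Markers of mature and committed cells were used to check the labelled cell types. Among myeloid markers, the start of Mpo (myeloperoxidase) had 5.98 in MPP3 and 3.95 in MPP4 cells, a difference of -2.02 at percentile 0.265, and that of Elane (neutrophil elastase) 3.01 and 1.80. That of Itgam, given above, was higher in MPP4 cells, and over the myeloid list 3 of 9 shared positions were higher. Among megakaryocyte markers, the start of Pf4 had 3.85 and 2.78, and 1 of 5 shared positions, that of Gp1bb, was higher in MPP4 cells by 0.12. Among erythroid markers 1 of 6 shared positions was higher in MPP4 cells. At the B cell markers Cd79a, Cd79b and Ms4a1, 0 of 2 shared positions were higher in MPP4 cells, with differences of -0.73 and -0.18, and summed levels were 37.9 CPM in MPP3 and 17.1 CPM in MPP4 cells. Ms4a1 went the other way, with 4.53 CPM in MPP3 and 9.83 CPM in MPP4 cells. At the T cell markers, 2 of 3 shared positions were higher, with a median of 0.12 and a range of -1.21 to 0.53. The lowest of these was at Cd4, and Cd8a had no peak. The stem cell list, which includes Procr, had 20 of 33 shared positions higher, with a median of 0.13 and a range of -0.93 to 1.76. Of these 33, 5 differed by at least 1 towards MPP4, beside 6.05% of all shared positions. The start of Mecom had 6.25 and 5.85, but 10 of the 15 shared Mecom positions were higher in MPP4 cells. The start of Fgd5 was higher in MPP4 cells by 0.20, and that of Hlf lower by -0.08. Accessible DNA at a marker gene does not show that it is expressed, and the part of such cells in the differences was not tested.

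**Figure D5:**
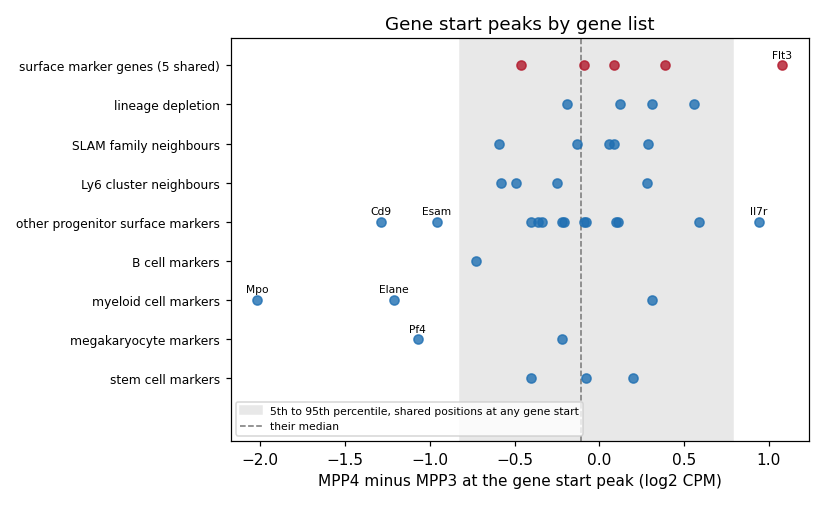
Difference in level between MPP4 and MPP3 cells (x axis, log2 CPM) at the shared gene start peak of each gene, by gene list (y axis). The grey band spans the 5th to 95th percentiles of shared positions within 1 kb of any transcript start (-0.82 to 0.79), and genes past 0.9 in either direction are named. Flt3, with 1.08, lies furthest to the right, and Mpo, with -2.02, furthest to the left.

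Genes with the most similar pair of start levels were named by Euclidean distance among 13404 protein-coding genes, over these 2 cell types only. For Flt3 they were Capn3, with a level of 5.99 in MPP3 cells and of 7.13 in MPP4 cells (distance 0.138), Ldlrad4 with 5.82 and 6.78, and Tbc1d10c with 6.13 and 6.85. For Kit, near 5.5 in both cell types, they were Msantd2, Rnf181 and Adi1, at distances of 0.020 to 0.025. For Cd34 they were Nup205, Rsad2 and Cr1l, for Cd48 Rorb, Hmcn1 and Kat2a, and for Slamf1 Capsl and Fam163a, all at distances of at most 0.045. The nearest gene to Flt3 was thus further away than any gene named for the other 4. The Flt3 start peak was at percentile 99.6 of the MPP4 peaks, where few others lie. Whether the distance reflects more than that was not tested.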

How the data were processed

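ATAC-seq was performed by the authors on sorted MPP3 and MPP4 cells, and the deposited tables hold 1 row per peak and cell type. According to the methods, adapters were trimmed with Cutadapt 2.10, reads were mapped to mm10, and duplicates and fragments over 150 bp were removed, the latter with deepTools 3.3.2, so that values rest on fragments without nucleosomes. Peaks were called with MACS2 2.2.7.1 on merged replicates and merged within a cell type, and the authors fitted edgeR 3.32.0 in R 4.0.3. The deposited mean level, a log2 CPM over 4 libraries, is relative to the fragments in the peaks of its own table. The remaining columns hold the authors' genotype comparison (fold change, F, p-value and FDR) and were not used. The methods give a common depth aimed at for all samples, but the depth each library reached was not analysed here. No interval was thus computed for a level or a difference.

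Peaks were assigned to genes and matched by interval overlap in Python 3.11.15 (pandas 2.3.3, numpy 2.4.6), tested on simulated data. Differences are MPP4 minus MPP3 in log2 CPM, also per kb of peak. Gene start peaks had their center within 1 kb of the gene start for the 7 genes, and of any transcript start of the gene for other genes. Members and lists were chosen with earlier results of these data known. Named were the 7 genes, genes of the context lists (the lists' counts cover every member analysed), up to 3 of the nearest start patterns of each gene, and within a gene its start peaks, positions differing by at least 1, and its highest distal and single-table peaks; other positions were named to account for every peak. Sequences and promoters were from RefSeq (GRCm38.p6). The tables held 0 per-library columns. Some genes of the context lists and start patterns are not reported here.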

Additional observations from a re-analysis of the deposited data

How the results depend on the processing

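The counts and differences were recomputed under other windows, overlaps, filters and scales. Requiring a log2 CPM of at least 2 left 19 of 30 MPP3 peaks and 19 of 37 MPP4 peaks of the 7 genes. The other 19 recomputed counts and medians over all 7 genes kept their direction and stayed within 1.5 times or the spread between positions: 28 to 44 MPP3 and 35 to 51 MPP4 peaks across windows, 24 or 25 shared positions, 6 to 8 peaks near any transcript start of the genes, and a median difference of 0.13 to 0.18 log2 CPM. For single genes, division by peak length reversed the median of Kit from 0.10 to -0.10, of Cd48 from -0.24 to 0.03 and of Procr from -0.16 to 0.10, whereas that of Flt3 went from 0.65 to 0.40. Assigning a peak to any listed gene in whose window it lies reversed the summed difference of Cd48 from -1.14 to 0.24 and moved that of Procr to -1.02, and the shared positions alone gave -0.24 for Cd48. The Cd48 start peak of MPP4 cells, assigned to another gene, is missing from -1.14 and counted in -0.24, and the positive value also counts 5 further positions in its window. Motif shares over whole peaks stayed within the exact 95% binomial intervals of those over the windows. These intervals are wide for 30 or 37 peaks, so this does not show that the shares are stable. The GATA share of MPP4 peaks went from 24.3% in windows to 13.5% over whole peaks, beside 17.0% and 16.4% of all peaks. The shares of GATA in MPP3 cells, PU.1 in both, and EBF1 and RUNX in MPP4 cells likewise crossed those of all peaks.

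No paired analysis was possible because the columns carry no replicate numbers and the values are pooled over libraries and genotypes. For the same reason no replicate was left out and no test was run. The genotype change is held only as the authors' own comparison and was not analysed. Levels near the lowest listed value (0.08 log2 CPM) set the limit of what was called a peak, and single-table peaks below 2.30 cannot be read as closed DNA in the other cell type.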
